A study of Mus musculus with 12 samples.

Results

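The genes described here encode the nuclear subunits of the mitochondrial respiratory chain and of ATP synthase, measured in mouse CD8 T cells with and without STAT3. They were chosen by name, by a rule that uses no measured value but was set with earlier results of these data known: every gene with a probe set of exactly 1 symbol in the platform annotation, where that symbol began with Nduf, Sdh (a to d), Uqcr, Cox4 to Cox8 or Atp5. This took 89 of 22180 genes on the array: 32 of complex I, 8 assembly factors of complex I (Ndufaf), 4 of complex II, 7 of complex III, 19 of complex IV, 17 of ATP synthase and 2 pseudogenes, Atp5c1-ps and Uqcrh-ps1. Ndufa4, Ndufa4l2 and Cox7a2l were counted with complex IV. Another 9 symbols that fit the names, among them Cox6c, Ndufb2, Ndufs6 and Uqcr10, shared their probe sets with other genes and were not analysed here.

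The study set Tc17 cells, CD8 T cells driven towards IL-17 production, beside Tc1 cells, the interferon-gamma producing type, each with and without the transcription factor STAT3, which carries the IL-6 signal to the nucleus. Naive spleen CD8 T cells of wild type (WT) and of Cd4cre+ STAT3fl/fl (STAT3-/-) genotype were pooled in equal numbers, activated for 4 days (anti-CD3, 1 µg/ml; anti-CD28, 3 µg/ml) and sorted apart again by allelic markers, so both genotypes shared each culture. Tc1 cultures received IL-12 and Tc17 cultures IL-6 and TGFb for 3 days, and all 4 groups then had IL-2 for 1 day. Cd4-driven Cre removes the floxed gene in developing T cells, so the STAT3-/- cells had lacked STAT3 before they were put in culture. Each group held 3 arrays, from biological replicates 1 and 2 and a technical replicate numbered 2, which was averaged with biological replicate 2 to give 2 samples. The labels give neither the animals' ages nor whether replicates came from separate animals or cultures, so p-values measure the spread among these samples only, which may be technical.

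The respiratory chain passes electrons from NADH through complex I, or from succinate through complex II, to complex III and then to complex IV, which reduces oxygen. Complexes I, III and IV pump protons across the inner mitochondrial membrane, and ATP synthase uses the return of the protons to make ATP. Most subunits are encoded in the nucleus, while a small core of hydrophobic subunits of every complex except complex II is encoded by mitochondrial DNA. T cells raise both glycolysis and respiration when activated, and the balance between them differs among effector and memory types.

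Levels are given as relative log2 levels, the deposited log2 value minus the same array's median over the 9862 genes tested, and differences between groups as log2 changes with their SE. Genes were tested where the mean of any group was 5 or more on the deposited log2 scale, and were called at an adjusted p under 0.05 (limma, Benjamini-Hochberg over all genes tested). Of the 89 genes 77 were tested. The other 12 had highest group means from 1.96 to 4.78 and were Atp5c1-ps, Atp5g1, Atp5j2, Cox6a2, Cox7b2, Cox7c, Cox8b, Cox8c, Ndufa4l2, Ndufab1, Ndufs5 and Uqcrh-ps1. Because each probe set has its own brightness, a higher value of 1 gene than of another does not show more RNA.

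The labels were checked on the targeted gene. Stat3 had relative log2 levels of 3.81 and 3.75 in Tc17 WT against 0.83 and 0.79 in Tc17 STAT3-/-, and 3.14 and 3.01 in Tc1 WT against 0.66 and 0.15 in Tc1 STAT3-/-. All 7 CD8 T cell markers measured passed the filter, and the list's sample means ran from 10.26 to 10.48. The Tc17 WT technical array stood apart, with a median correlation of 0.933 with the other arrays where the others had at least 0.96. In every group the technical array differed more from biological array 2 than the 2 biological arrays differed from each other. Over all tested genes the SD of the difference was 0.209 to 0.352 against 0.144 to 0.192. Of 5 B cell markers measured, Cd79b and Ighm passed the filter, and the list's sample means were 5.22 to 5.28 in Tc17 WT, 5.69 to 5.73 in Tc17 STAT3-/- and 5.51 to 5.58 in Tc1. Both rose in Tc17 STAT3-/- over WT, with log2 changes of 0.66 for Cd79b and 1.65 for Ighm, while Ms4a1, Cd79a and Pax5 stayed under the filter. In the same comparison Cd68, the 1 tested of 6 myeloid markers, fell (-1.24), and Cd4, 1 of 2 CD4 T cell markers tested, fell (-0.36). The myeloid list's sample means were 4.09 to 4.24 in Tc17 WT and 3.98 to 3.99 in Tc17 STAT3-/-, and those of the CD4 list 4.795 to 4.993 and 4.62 to 4.74. Of the 7 CD8 T cell markers 0 rose and 1 fell there. The part of these markers in the results below was not tested. In bulk samples fewer cells of a type and less RNA per cell cannot be told apart.

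The upstream sequences of 5 members are shown as examples of windows with and without the motif counted next. Cox7a1, Ndufa4 and Ndufs4 were called in Tc17 cells and have a RefSeq promoter window, while Ndufs1 and Atp5mpl, also called, had none in the table used. Sdha and Atp5g2, which were not called, were picked because they carry repeated matches to the motif of NRF1, a factor known for its sites in promoters of respiratory chain genes. That choice fixes the contrast between these lines: most windows of uncalled members hold no match. Each line gives the 150 bases before the transcription start, 5′ to 3′ on the gene's strand, from RefSeq on build GRCm38.p6, with capitals marking matches to the NRF1 letters GCGCANGCG on either strand.
Cox7a1, chr7:30184021-30184170, plus strand: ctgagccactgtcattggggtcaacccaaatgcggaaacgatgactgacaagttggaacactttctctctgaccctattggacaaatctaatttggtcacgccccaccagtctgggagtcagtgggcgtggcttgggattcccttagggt
Ndufa4, chr6:11907451-11907600, minus strand: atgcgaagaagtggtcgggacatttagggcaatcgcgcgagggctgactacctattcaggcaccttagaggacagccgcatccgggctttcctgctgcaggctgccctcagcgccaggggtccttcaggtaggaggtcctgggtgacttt
Ndufs4, chr13:114388095-114388244, minus strand: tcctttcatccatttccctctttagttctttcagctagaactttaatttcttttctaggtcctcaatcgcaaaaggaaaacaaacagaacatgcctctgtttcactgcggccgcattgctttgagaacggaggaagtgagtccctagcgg
Sdha, chr13:74350241-74350390, minus strand: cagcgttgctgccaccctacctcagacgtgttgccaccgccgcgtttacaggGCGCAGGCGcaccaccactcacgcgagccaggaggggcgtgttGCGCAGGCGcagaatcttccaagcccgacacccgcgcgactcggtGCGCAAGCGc
Atp5g2, chr15:102671048-102671197, minus strand: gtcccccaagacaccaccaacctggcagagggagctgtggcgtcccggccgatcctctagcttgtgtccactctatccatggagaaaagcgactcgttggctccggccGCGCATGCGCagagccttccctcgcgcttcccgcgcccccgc
The Sdha stretch holds 3 separate matches. The Atp5g2 stretch holds 2 overlapping matches on opposite strands, and the other stretches hold none. Their CpG dinucleotides number 4 in Cox7a1, 8 in Ndufa4, 5 in Ndufs4, 19 in Sdha and 14 in Atp5g2.

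Over whole windows, from 250 bases before the start to 50 after, 72 of the 89 members had 77 windows. Among the 70 windows of members that were tested, 28.6% held the NRF1 letters, against 13.9% of the 9935 windows of all tested genes and 6.25% of all 32851 windows. The YY1 letters AAGATGGCG were in 8.57% of the members' windows (6 windows) against 3.28% of those of tested genes. The ERRA letters TCAAGGTCA were in 2.86%, which is only 2 windows, against 0.272%. The ETS letters CCGGAAGT of GABPA were in 7.14% against 8.75%. The STAT letters TTCNNNGAA were in 8.57% (6 windows) against 6.87%, in windows of Atp5d, Atp5o, Atp5pb, Ndufa8 and Ndufb6. Overlapping windows of 1 gene, as for Atp5d, were counted separately. By complex, untested members included, NRF1 letters were in 38.9% of 18 windows of ATP synthase, 22.6% of 31 of complex I, 66.7% of 3 of complex II, 50% of 4 of complex III, 7.14% of 14 of complex IV and 28.6% of 7 of the assembly factors. These are shares of letters on both strands of fixed windows, overlapping matches included. The called gene Ndufs4 had the YY1 letters 36 bases after its start, and the windows of Cox7a1 and Ndufa4 held none of the 5 motifs.

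The title's comparison asks what STAT3 deletion did in Tc17 cells. Most respiratory chain and ATP synthase genes did not change beyond the spread: of 77 tested members, 6 rose without STAT3, 1 fell and 70 were not called. Those that rose were the ATP synthase associated protein Atp5mpl, Ndufa4, the complex I subunits Ndufs1 and Ndufs4 and the assembly factors Ndufaf3 and Ndufaf7, and the one that fell was Cox7a1. The shares, 7.79% higher and 1.3% lower, stood beside 11% higher and 11.3% lower among all 9862 genes tested. The median log2 change of the members was 0.06, with 46 above 0 and 31 below, against -0.01 over all genes. Without Tc17 WT replicate 1 that median turned to -0.02, with 35 above 0.

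**Figure D1:**
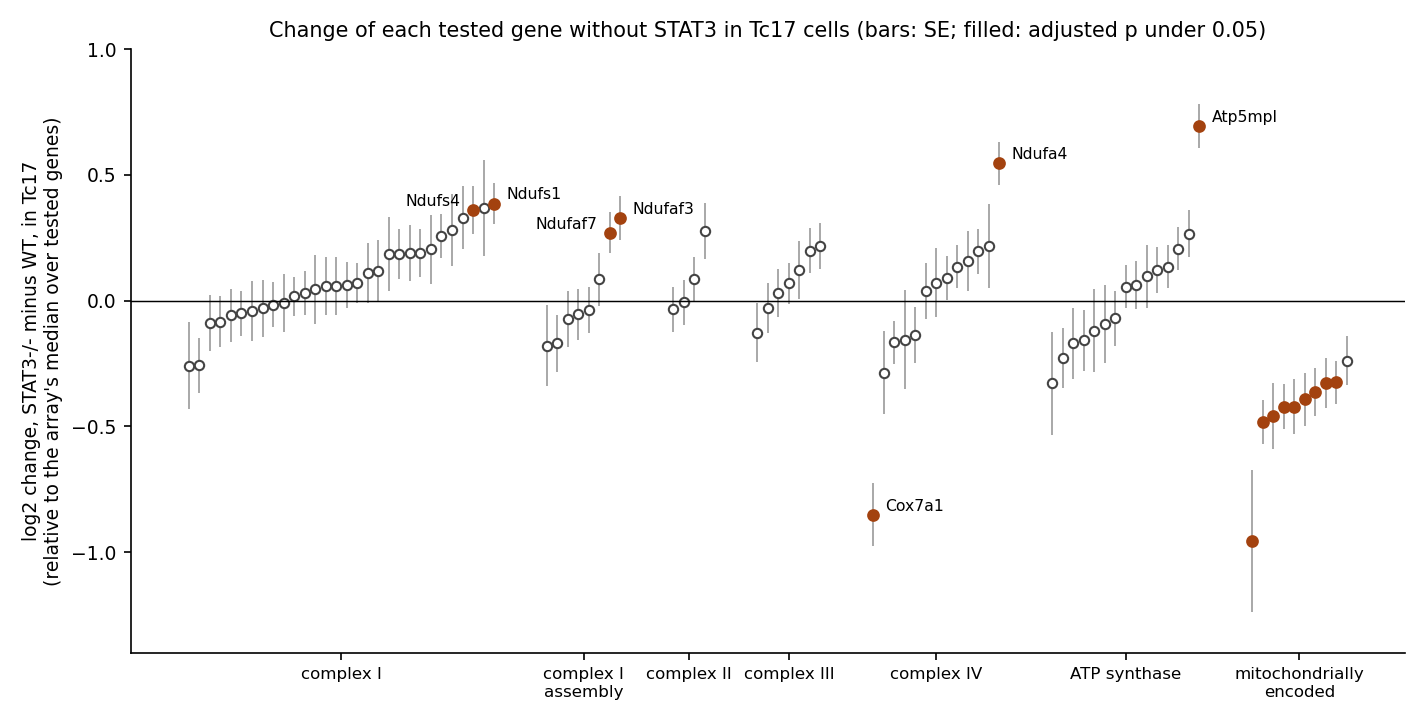
Log2 change (STAT3-/- minus WT) in Tc17 cells of each of the 77 tested members, ordered by size within each complex, and of the 10 mitochondrially encoded genes; bars are SE and filled points have an adjusted p under 0.05 (limma). Most nuclear members lie within 0.4 of 0, Cox7a1 lies at -0.85 and Atp5mpl at 0.69, and all 10 mitochondrially encoded genes lie below 0.

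The only called member that fell was Cox7a1, the isoform of a complex IV subunit best known from heart and skeletal muscle (chromosome 7). Its relative log2 levels were -2.14 and -1.88 in Tc1 WT, -1.99 and -1.87 in Tc1 STAT3-/-, -1.0 and -0.87 in Tc17 WT, and -1.93 and -1.64 in Tc17 STAT3-/-. Both Tc17 WT samples stood above all 6 others, which overlapped. The log2 change without STAT3 in Tc17 was -0.85 ± 0.13 (SE, adjusted p = 0.00203). Cox7a1 was dim: on the deposited log2 scale its 3 Tc17 WT arrays read 5.91, 5.93 and 5.90, against 4.86 to 5.34 on the other 9 arrays, levels close to background, where RMA narrows differences.

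Ndufa4, a small subunit first assigned to complex I and now known as part of complex IV (chromosome 6), went the other way. Its relative log2 levels were 2.40 and 2.51 in Tc1 WT, 2.36 and 2.43 in Tc1 STAT3-/-, 2.02 and 1.91 in Tc17 WT, and 2.50 and 2.52 in Tc17 STAT3-/-. The Tc17 WT samples were the lowest 2 of the 8, and the other groups lay close together. The log2 change was 0.55 ± 0.09 (SE, adjusted p = 0.00282). Its paralog Ndufa4l2, known as a hypoxia-induced form, had a highest group mean of only 3.71 and was not tested.

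Atp5mpl, a small proteolipid that copurifies with ATP synthase (chromosome 12), had the largest rise among the members. Its relative log2 levels were 1.62 and 1.70 in Tc1 WT, 1.77 and 1.85 in Tc1 STAT3-/-, 1.11 and 1.12 in Tc17 WT, and 1.75 and 1.87 in Tc17 STAT3-/-. Again the Tc17 WT samples were below every other sample. The log2 change was 0.69 ± 0.09 (SE, adjusted p = 0.000767).

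Ndufs1, the largest subunit of complex I and carrier of iron-sulfur clusters in its electron input arm (chromosome 1), had relative log2 levels of 0.92 and 0.86 in Tc1 WT, 0.91 and 0.84 in Tc1 STAT3-/-, 0.40 and 0.40 in Tc17 WT, and 0.77 and 0.80 in Tc17 STAT3-/-. Both Tc17 WT samples were lowest and the log2 change was 0.39 ± 0.08 (SE, adjusted p = 0.00997). The call was lost without either Tc17 STAT3-/- replicate (adjusted p = 0.0679 and 0.0817). A second probe set, shared by Ndufs1 and Ino80dos and dim at a mean of 4.02, changed by -0.10.

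Ndufs4, an accessory subunit needed to stabilise complex I (chromosome 13), had relative log2 levels of 0.21 and 0.28 in Tc1 WT, 0.27 and 0.24 in Tc1 STAT3-/-, -0.01 and -0.12 in Tc17 WT, and 0.20 and 0.40 in Tc17 STAT3-/-. The Tc17 WT samples were lowest, and the Tc17 STAT3-/- samples spread over the range of both Tc1 groups. The log2 change was 0.36 ± 0.10 (SE, adjusted p = 0.0275). The call was lost with no filter on dim genes (adjusted p = 0.0799), without Tc17 WT replicate 2 (0.0980) and without Tc17 STAT3-/- replicate 2 (0.213).

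**Figure D2:**
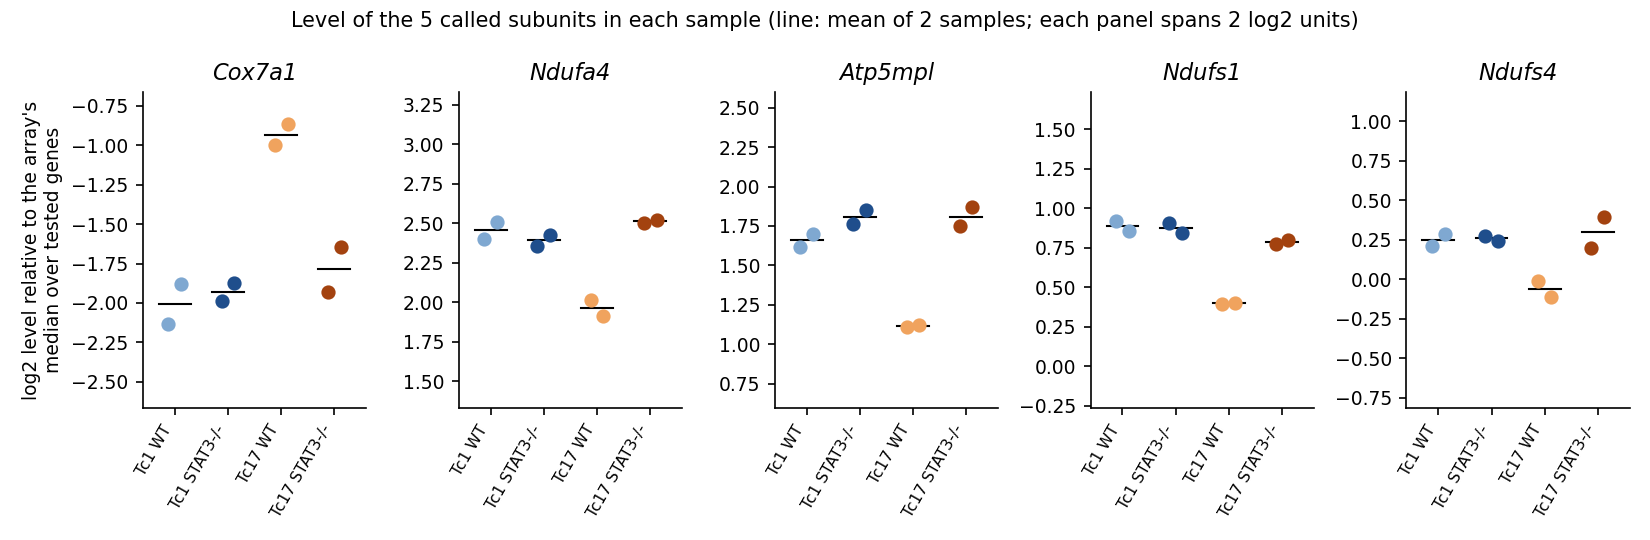
Relative log2 level of the 5 called subunits in each of the 8 samples; points are samples, lines are means of 2 samples, and each panel spans the same height of 2 log2 units on its own axis. In Tc17 WT, Cox7a1 is higher than in every other sample (-1.0 and -0.87) and the other 4 are lower than in every other sample.

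The 2 assembly factors rose by less. Ndufaf3, which helps to build the arm of complex I that binds quinone, had relative log2 levels of 0.76 and 0.91 in Tc17 WT and 1.20 and 1.12 in Tc17 STAT3-/-, a log2 change of 0.33 ± 0.09 (SE, adjusted p = 0.0276). Ndufaf7, a methyltransferase needed for complex I assembly, had 0.10 and 0.11 against 0.39 and 0.36, a log2 change of 0.27 ± 0.08 (SE, adjusted p = 0.0428). In both, the 2 Tc17 groups did not overlap. Their calls were the least stable: Ndufaf3 lost its call in 5 of 22 alternative settings and Ndufaf7 in 10, with adjusted p up to 0.182 and 0.210. The other 6 assembly factors of this name were not called and ranged from -0.18 for Ndufaf2 to 0.08 for Ndufaf1.

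Within complex I, 2 of 30 tested subunits rose (6.67%) and 0 fell, beside 11% higher and 11.3% lower of all genes tested. The median log2 change was 0.06. Among the core subunits of the electron path, Ndufs1 was called, as given above (0.39, 95% interval 0.204 to 0.568), and the others named here were not. Ndufv1, which binds NADH, had a log2 change of 0.06 (-0.205 to 0.322) and Ndufs8, an iron-sulfur subunit, of 0.11 (-0.161 to 0.383). Ndufs7, which holds the last iron-sulfur cluster before quinone, had relative log2 levels of 2.20 and 2.28 in Tc17 WT and 2.47 and 2.52 in Tc17 STAT3-/-, groups that did not overlap, but its log2 change of 0.26 (0.055 to 0.460) was not called (adjusted p = 0.0714). The accessory subunit Ndufa9 was near the threshold too, with 2.12 and 1.71 against 2.23 and 2.26 and a log2 change of 0.33 (adjusted p = 0.0948). At the other end Ndufb11, a membrane arm subunit, changed by -0.26 (adjusted p = 0.326), and Ndufb8, not called either, had a 95% interval below 0 (-0.505 to -0.01). The smallest change of complex I was that of Ndufa5, -0.01 (-0.267 to 0.249), and that of Ndufb9 was -0.04.

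None of the 4 subunits of complex II was called, beside 11% higher and 11.3% lower of all genes tested, and the median log2 change was 0.04. By limma 14 members of all complexes had an unadjusted p under 0.05, 1 of them in complex II. Sdha, the flavoprotein that oxidises succinate and also works in the tricarboxylic acid cycle, had relative log2 levels of 2.87 and 3.04 in Tc1 WT, 3.01 and 2.95 in Tc1 STAT3-/-, 2.94 and 2.93 in Tc17 WT and 2.92 and 2.88 in Tc17 STAT3-/-. All 8 samples lay within 0.2 of each other. Its log2 change in Tc17 was -0.03 (95% interval -0.235 to 0.165), and that of Sdhb, the iron-sulfur subunit, was -0.01 (-0.208 to 0.195). Sdhc, a membrane anchor, had the largest change, 0.28 (0.024 to 0.532, adjusted p = 0.111).

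In complex III 0 of 7 were called, beside 11% higher and 11.3% lower of all genes tested. By limma 1 had an unadjusted p under 0.05, and the median log2 change was 0.07. Uqcrfs1, the Rieske iron-sulfur protein, changed by -0.03 (95% interval -0.254 to 0.199) and the core protein Uqcrc2 by 0.07 (-0.115 to 0.256). The other core protein, Uqcrc1, had relative log2 levels of 2.74 and 2.65 in Tc17 WT and 2.93 and 2.90 in Tc17 STAT3-/-, groups that did not overlap, and a log2 change of 0.22 (0.007 to 0.428, adjusted p = 0.129). Uqcrb, a small subunit of complex III, changed by 0.12.

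Complex IV held both the fall of Cox7a1 and the rise of Ndufa4, and its other 11 tested members were not called. Each call was 7.69% of its 13 tested members, beside 11.3% lower and 11% higher of all genes tested. Complex IV has several subunits in alternative forms, a widespread one and one known from particular tissues. For the subunit that Cox7a1 shares with Cox7a2, the widespread form Cox7a2 changed by 0.04 (95% interval -0.212 to 0.288), with relative log2 levels of 1.62 and 1.73 in Tc17 WT and 1.66 and 1.76 in Tc17 STAT3-/-. The related Cox7a2l, which joins complexes III and IV into supercomplexes, changed by -0.17 (adjusted p = 0.20). The lung and hypoxia form Cox4i2 changed by -0.29 (-0.664 to 0.092) and the widespread Cox4i1 by -0.14 (-0.39 to 0.12). Neither was called.

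The remaining widespread forms also stayed within the error. Cox6a1 changed by 0.14 (adjusted p = 0.301), Cox6b1 by 0.07, Cox7b by -0.15 and Cox8a by 0.16. Cox6b2, known as the testis form, changed by 0.20 (adjusted p = 0.151). The forms Cox6a2, Cox7b2, Cox8b and Cox8c were too dim to test, with highest group means of 4.56, 1.96, 3.15 and 3.40. The nuclear subunits Cox5a and Cox5b changed by 0.09 (95% interval -0.107 to 0.289) and 0.22 (-0.160 to 0.596).

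In ATP synthase 1 of 15 tested members, Atp5mpl, was called higher (6.67%) and 0 lower, beside 11% and 11.3% of all genes tested. The median log2 change was 0.06. The catalytic subunit Atp5b had relative log2 levels of 4.73 and 4.78 in Tc1 WT, 4.64 and 4.77 in Tc1 STAT3-/-, 4.66 and 4.64 in Tc17 WT and 4.72 and 4.69 in Tc17 STAT3-/-. These samples lie within 0.2 of each other, and the log2 change of Atp5b in Tc17 was 0.06 (95% interval -0.135 to 0.247). Atp5a1, its partner in the catalytic ring, changed by 0.21 (0.013 to 0.402, adjusted p = 0.119) and the central stalk Atp5c1 by 0.14 (-0.057 to 0.328). Of the 3 genes for the proton-carrying c subunit, Atp5g2 changed by 0.27 (adjusted p = 0.0727), Atp5g3 by 0.10, and Atp5g1 was too dim to test. Atp5d, a stalk subunit, had the lowest value, -0.33, with an SE of 0.21, but another probe set of Atp5d changed by 0.04.

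The error of these changes sets what could be seen. The SE of a member's log2 change ran from 0.079 to 0.206, and the 95% interval lay within a 2-fold change for 76 of the 77 members and within a 1.5-fold change for 66. Of the 9 members with several probe sets, the one used and another differed in sign for Atp5d, Atp5h, Cox5b, Cox7b, Ndufa11 and Ndufa8. By rule the one used was the brightest. The other had a mean under 5 for Atp5h, Cox5b, Cox7b and Ndufa11. It was at 8.72 for Atp5d, with a log2 change of 0.04 against -0.33, and at 6.73 for Ndufa8, with -0.05 against 0.19. Each of the 7 called members had only 1 probe set of its own, so this comparison could not be made for them.

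The counts depended on how the arrays were scaled. With the values as deposited 16 members were higher and 1 lower, among 1799 higher and 674 lower of all genes. With each array's median over all genes, dim ones included, subtracted, 22 were higher and 1 lower, and the members' median log2 change was 0.23. These scalings move the median of all tested genes to 0.11 and 0.17, so the changes given here are relative to that shift. With quantile normalization 9 were higher, and with cyclic loess 6. The share of members called higher stayed near that of all genes under each: 20.8% against 18.2% as deposited, 28.6% against 22.3% with the median of all genes, 11.7% against 12.2% with quantiles and 7.79% against 10.8% with loess. The members' share of lower calls was 1.3% under each of these scalings, and Cox7a1, Ndufa4 and Atp5mpl kept their Tc17 call under each.

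**Figure D3:**
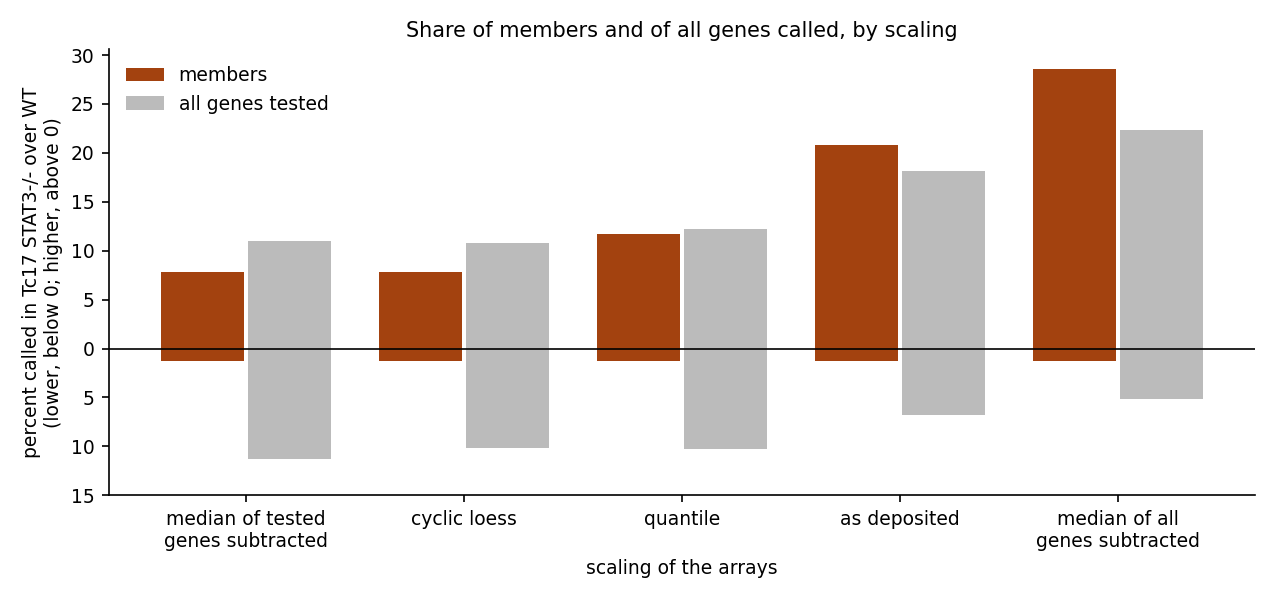
Percent of the 77 tested members and of all genes tested that were called higher (above 0) or lower (below 0) in Tc17 STAT3-/- over WT, under 5 scalings of the arrays. The members' share of higher calls runs from 7.79% to 28.6% and follows that of all genes, and their share of lower calls is 1.3% in each.

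In Tc1 cells, which were grown without IL-6, no member was called in STAT3-/- over WT, higher or lower, by limma. Among all genes tested 0.0304% were called higher and 0.0608% lower, and 2 members had an unadjusted p under 0.05. The median log2 change of the members was -0.03 and the range ran from -0.30 for Atp5o, a stalk subunit of ATP synthase, to 0.21 for the assembly factor Ndufaf1. The 5 subunits called in Tc17 had log2 changes in Tc1 of 0.08 (Cox7a1), -0.06 (Ndufa4), 0.15 (Atp5mpl), -0.01 (Ndufs1) and 0.01 (Ndufs4).

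The interaction asks whether the STAT3 effect differed between Tc17 and Tc1, and 3 members were called. The effect in Tc17 minus that in Tc1 was 0.61 ± 0.12 (SE, adjusted p = 0.0211) for Ndufa4 and 0.54 ± 0.12 (adjusted p = 0.0344) for Atp5mpl, and -0.93 ± 0.18 (adjusted p = 0.0178) for Cox7a1. Among all genes tested 2.75% were called higher and 3.76% lower. The members' median interaction was 0.10, with 52 above 0 and 25 below, against 0.003 over all genes. Ndufs1 had an interaction of 0.40 (adjusted p = 0.0746), Ndufs4 of 0.35 (0.171), Ndufaf3 of 0.49 (0.0515) and Ndufaf7 of 0.26 (0.235), none of them called. The error is wider here, with the 95% interval within a 1.5-fold change for 51 of 77 members. Calls were lost for Cox7a1 in 4 settings (adjusted p up to 0.0759), for Ndufa4 in 5 (up to 0.103) and for Atp5mpl in 12, where leaving out the technical arrays brought its value to 0.33.

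Wild-type Tc17 cells were set against wild-type Tc1 cells to see how the cultures differed with STAT3 present. Cox7a1 was higher in Tc17, by a log2 change of 1.07 ± 0.13 (SE, adjusted p = 0.000558). Lower in Tc17 were 4 members: Atp5mpl by -0.54 ± 0.09 (adjusted p = 0.00300), Ndufa4 by -0.49 ± 0.09 (0.00477), Ndufs1 by -0.49 ± 0.08 (0.00339) and Ndufs4 by -0.31 ± 0.10 (0.0469). All genes tested had 11.5% higher and 11.3% lower, and the members' median was -0.06. As deposited 1 member was higher and 12 lower (1.3% and 15.6%, beside 7.01% and 18% of all genes). With the median of all genes subtracted 1 was higher and 18 lower (1.3% and 23.4%, beside 5.17% and 22.6%). Ndufs4 lost this call in 10 settings. Without Tc17 WT replicate 1 the members' median was 0.001, with 40 above 0.

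This comparison and the STAT3 comparison in Tc17 share the Tc17 WT samples, so a deviation of those samples enters both with opposite sign. In STAT3-/- cells, which share no Tc17 WT sample, no member was called between Tc17 and Tc1 by limma, where 1.26% of all genes were higher and 1.27% lower. Only 2 members had an unadjusted p under 0.05, the median log2 change was 0.03 and the range ran from -0.11 to 0.27. The log2 changes were 0.14 for Cox7a1 (adjusted p = 0.744), 0.12 for Ndufa4 (0.677), 0.00 for Atp5mpl (0.995), -0.09 for Ndufs1 (0.753) and 0.04 for Ndufs4 (0.926).

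Relative to the median over tested genes, samples of the 4 groups overlapped in the median level of the nuclear members. With the median of all genes subtracted instead, their median log2 change was 0.231 in Tc17 STAT3-/- over WT and -0.232 in WT Tc17 over Tc1. That of all tested genes was then 0.167 and -0.162. The median relative log2 level over the 77 tested was 1.24 and 1.19 in the Tc1 WT samples, 1.20 and 1.26 in Tc1 STAT3-/-, 1.04 and 1.27 in Tc17 WT, and 1.21 and 1.28 in Tc17 STAT3-/-. The groups overlapped, and the 2 Tc17 WT samples differed more from each other than any 2 groups did in their means.

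The subunits encoded by mitochondrial DNA did otherwise. Of 13 such genes 10 had a probe set of their own and all 10 were tested: 7 subunits of complex I (ND1 to ND6 and ND4L), cytochrome b of complex III (CYTB) and 2 catalytic core subunits of complex IV (COX1 and COX3). In Tc17 cells 9 fell without STAT3 and 0 rose, beside 11.3% lower and 11% higher of all genes tested, with a median log2 change of -0.41, and ND3 was not called (-0.24, adjusted p = 0.116). They are cut from a few long transcripts, so they are not independent measurements. The list was chosen with earlier results of these data known.

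CYTB, the redox core of complex III, had relative log2 levels of 4.99 and 4.94 in Tc1 WT, 4.97 and 5.04 in Tc1 STAT3-/-, 5.44 and 5.49 in Tc17 WT, and 5.05 and 4.91 in Tc17 STAT3-/-. The Tc17 WT samples were above all others, and the log2 change was -0.48 ± 0.09 (SE, adjusted p = 0.00510). ND5, a proton-pumping subunit of complex I, had 5.59 and 5.61 in Tc17 WT against 5.24 and 5.12 in Tc17 STAT3-/- (log2 change -0.42 ± 0.09, adjusted p = 0.0107), and ND4L had 5.35 and 4.97 against 4.78 and 4.62 (-0.46, adjusted p = 0.0348). COX1, the catalytic subunit of complex IV, had 5.72 and 5.94 against 5.46 and 5.41 (-0.39 ± 0.11, adjusted p = 0.0291). ND6, known as the one subunit read from the other strand, had the largest change, -0.95 ± 0.28 (adjusted p = 0.0407). For ND6 the Tc17 WT technical array read 10.52 on the deposited log2 scale, where biological arrays 1 and 2 read 9.01 and 9.46, and the gene was still called with that array left out. Its log2 change was -0.53 with all 4 technical arrays left out and -0.40 without Tc17 WT replicate 2, and it was called in neither.

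In Tc1 none of the 10 was called without STAT3 (0 with an unadjusted p under 0.05, limma), beside 0.0304% higher and 0.0608% lower of all genes tested. The median log2 change was 0.03. Between Tc17 and Tc1 in WT cells 9 were higher in Tc17 and 0 lower, beside 11.5% higher and 11.3% lower of all genes tested, with a median of 0.39. ND4L was not called there (0.40, adjusted p = 0.0560). In STAT3-/- cells none was called (0 with an unadjusted p under 0.05), beside 1.26% higher and 1.27% lower of all genes tested, and the median was 0.01. The interaction was called for CYTB alone, -0.52 ± 0.12 (SE, limma adjusted p = 0.0409), beside 2.75% higher and 3.76% lower of all genes tested. Of the 10 genes 8 had an unadjusted p under 0.05 (limma), and the median interaction was -0.44. The CYTB call was lost as deposited, with the median of all genes subtracted, with quantiles and with loess.

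The direction of all 10 in Tc17 was the same under every setting tried, but the calls were not. With the values as deposited 4 were called lower in Tc17 STAT3-/-, with the median of all genes subtracted 0 (median log2 change -0.23), with quantiles 4 and with loess 6. The median log2 change was -0.364 without Tc17 STAT3-/- replicate 2, -0.449 without replicate 1 of that group and -0.292 without Tc17 WT replicate 2. Calls were fewer in each of these fits, both for these genes and for all genes tested. With only the Tc17 WT technical array left out all 10 were called.

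A difference between 2 medians of the same array does not depend on the scaling by an array median. It can still change with quantile normalization or loess, and was not computed under them. This difference was not among the planned results. The median of the 10 mitochondrially encoded genes minus that of the 77 nuclear members was 4.33, 4.21 and 4.07 on the Tc17 WT arrays (biological 1, biological 2, technical). It was 3.79, 3.75 and 3.41 in Tc17 STAT3-/-, 3.67, 3.67 and 3.72 in Tc1 WT, and 3.67, 4.03 and 3.55 in Tc1 STAT3-/-. All 3 Tc17 WT arrays stood above the other 9, the nearest being biological array 2 of Tc1 STAT3-/-. As means of 2 samples the difference was 4.23 ± 0.15 (SD, n = 2) in Tc17 WT, 3.68 ± 0.15 in Tc17 STAT3-/-, 3.68 ± 0.02 in Tc1 WT and 3.69 ± 0.03 in Tc1 STAT3-/-.

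**Figure D4:**
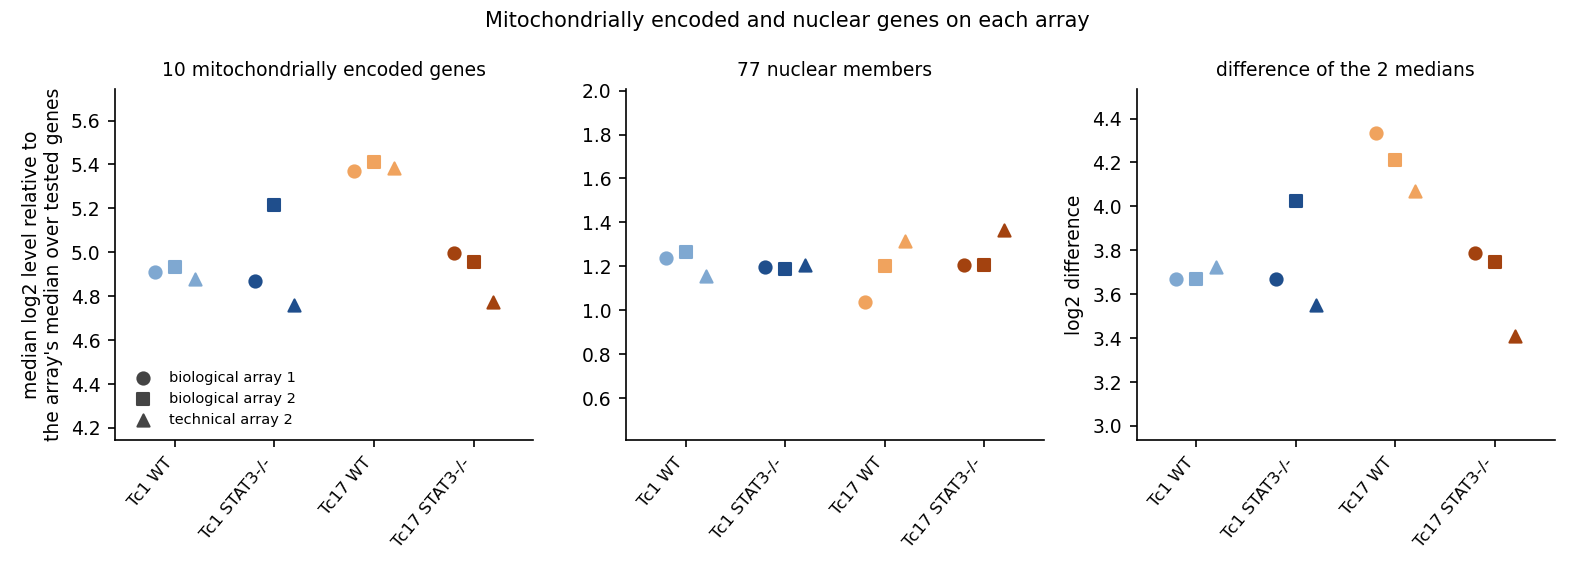
Median relative log2 level of the 10 mitochondrially encoded genes (left) and of the 77 nuclear members (middle), and the difference of the 2 medians (right), on each of the 12 arrays by group; circles are biological arrays 1, squares biological arrays 2 and triangles technical arrays. The Tc17 WT arrays lie highest in the left and right panels, at 4.07 to 4.33 on the right, and the groups overlap in the middle.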

How the data were processed

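RNA of 12 samples was measured on Affymetrix arrays. The authors deposited 1 log2 value per probe set and array, made with RMA and Partek per the submitters' processing notes (versions not given in the sources used here). RMA corrects background, normalizes between arrays and narrows differences near background. With 2 samples a group, the number of arrays limits the precision.

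From 41345 probe sets those with 1 annotated symbol (23521) were kept, and the brightest of each gene (22180 genes), of which 9862 passed the dim filter. Each array's median over tested genes was subtracted. Sample 2 of a group is the mean of biological array 2 and the technical array; which RNA the latter repeats is not labelled, so other assignments were tried. All 8 samples entered 1 fit for 5 contrasts with limma 3.58.1 (lmFit, contrasts.fit, eBayes without trend) under R 4.3.3, leaving 4 residual degrees of freedom. The fit was also run on simulated independent values with the spread of these samples and known changes. That simulation held no technical arrays, paired samples or correlated genes. Alternatives changed the scaling, dim filter, probe set rule, block and eBayes settings, or left out a replicate. Promoter windows and symbols are RefSeq's on GRCm38.p6, where all 89 members matched by identifier.

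The members and lists were chosen with earlier results of these data known. The named genes are the called members (up to the 8 largest changes a contrast), the probe set of highest mean and the most and least changed of each complex, the tissue isoform sets and core subunits, and the 3 largest changes of each other list. Members named outside this rule, such as Ndufa9, Ndufb8, Ndufb11 and Atp5d, were picked after their values were seen. So were CYTB's companions ND3, ND5 and COX1, and Sco1 and Nrf1.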

Additional observations from a re-analysis of the deposited data

Results flagged for a closer look

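The STAT3 effect differed between Tc17 and Tc1, by the test of the interaction (limma, adjusted p under 0.05), for 3 nuclear members and 1 mitochondrially encoded gene. For Cox7a1 the effect in Tc17 minus that in Tc1 was -0.93 on the log2 scale, from -0.85 in Tc17 and 0.08 in Tc1. For Ndufa4 it was 0.61, from 0.55 and -0.06. For Atp5mpl it was 0.54, from 0.69 and 0.15. For CYTB it was -0.52, from -0.48 and 0.04. Groups of 2 samples were too small for a test of single outlying samples.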

How the results depend on the processing

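None of 37 gene results reversed in the 20 to 22 other settings each could be fitted in. In Tc17 STAT3-/- over WT, 17 members were called with the values as deposited, 23 with the median of all genes subtracted and 4 with no dim filter, against 7; leaving out 1 replicate gave 3 to 10 (3 without Tc17 STAT3-/- replicate 2, 4 without its replicate 1, and 10, of them 5 higher and 5 lower, without Tc17 WT replicate 1). The interaction's 3 became 5 with the median of all genes, with technical arrays left out or with a trended, robust eBayes. They became 0 with no dim filter, where 1.54% of all genes were called against 6.51% in the main fit. With a replicate left out the members' median interaction ran from 0.036 to 0.146. The 5 members called in WT Tc17 over Tc1 became 13 as deposited and 19 with the median of all genes. They became 9 with the technical array put with replicate 1 or with a trended, robust eBayes. With a replicate left out the members' median log2 change there ran from -0.099 to 0.001. Of all genes tested 25.1% were called in Tc17 STAT3-/- over WT as deposited and 27.5% with the median of all genes, against 22.3% in the main fit. In WT Tc17 over Tc1 these shares were 25%, 27.8% and 22.9%. With the replicate number as a block 8 members were called in Tc17 (7 higher), 4 in the interaction and 7 in WT. With the replicate number as a block within each culture there were 8 in Tc17 (6 higher, 2 lower). Same-numbered deviations correlated at 0.098 to 0.455, over only 2 numbers.

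The mitochondrially encoded list was put through the same settings after its values had been seen. In Tc17 the 9 calls became 4 as deposited, with quantiles or without technical arrays, and 0 with the median of all genes. They became 2 with no dim filter, where 4.72% of all genes were called lower against 11.3% in the main fit. They became 6 with loess or with the technical array put with replicate 1. With a replicate left out the median log2 change ran from -0.449 to -0.292. In the interaction the 1 call became 0 as deposited, with the median of all genes, quantiles, loess or no dim filter. It became 2 with a dim filter at 6, without technical arrays or with the replicate number as a block within each culture. It became 3 without the Tc17 WT technical array and 4 with a trended, robust eBayes. With a replicate left out the median interaction ran from -0.488 to -0.33. In WT Tc17 over Tc1 the 9 became 4 as deposited, 3 with the median of all genes or quantiles, and 2 with no dim filter. With a replicate left out the median log2 change ran from 0.37 to 0.453. The causes were not tested. Of 864 median changes by complex and setting, 91 moved beyond the spread. In Tc1 and in STAT3-/- Tc17 over Tc1, 0 members were called in any setting. A sample left alone in its group by leaving out a replicate is assumed to vary like the others.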

Other observations

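Neighbouring mitochondrial genes were read from lists chosen with earlier results known, and are given as counts. In Tc17 STAT3-/- over WT, among 39 tested assembly factors outside the name rule 7 rose and 1 fell (17.9% and 2.56%, beside 11% and 11.3% of all genes tested), with a median log2 change of 0.16. Cmc2, a small twin-cysteine protein tied to complex IV assembly, had relative log2 levels of -0.85 and -1.13 in Tc17 WT and -0.35 and -0.52 in Tc17 STAT3-/- (0.56 ± 0.13, SE, limma adjusted p = 0.0165). Cox18, which inserts a mitochondrially encoded complex IV subunit into the membrane, had 1.02 and 0.77 against 1.40 and 1.45 (0.53 ± 0.10, adjusted p = 0.00615). Its log2 change in Tc1 was close to that, 0.52, but not called (adjusted p = 0.196), and the interaction was 0.01. Cmc1 rose by 0.47 ± 0.11 (adjusted p = 0.0158), and Sco1, a copper chaperone of complex IV, fell by 0.42 on the log2 scale (adjusted p = 0.0146).

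Of 17 tested genes for mitochondrial DNA and its regulators, 2 rose and 1 fell, shares of 11.8% and 5.88% that are near or below those of all genes. Tfam, which packages mitochondrial DNA and starts its transcription, had -0.65 and -0.45 in Tc17 WT, the lowest of the 8 samples, and -0.15 and -0.16 in Tc17 STAT3-/- (0.39 ± 0.09, adjusted p = 0.0168). Tfb1m, a methyltransferase of mitochondrial ribosomal RNA, rose by 0.41 ± 0.09 (adjusted p = 0.0111), and Polg, the mitochondrial DNA polymerase, fell by 0.45 on the log2 scale (adjusted p = 0.0417). Nrf1 had a log2 change of 0.29 (adjusted p = 0.0675). The Tc17 WT samples, lowest in Tfam and Tfb1m, were highest in the mitochondrially encoded genes. What links these values was not tested.

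Of 21 tested genes of the tricarboxylic acid cycle and pyruvate dehydrogenase, 3 rose and 0 fell, and the 14.3% that rose is near the 11% of all genes. They were Pdhb, a subunit of the enzyme that feeds pyruvate into the cycle (0.54 ± 0.10, adjusted p = 0.00624), its binding protein Pdhx (0.41 ± 0.11, adjusted p = 0.0322) and the fumarase Fh1 (0.37 ± 0.09, adjusted p = 0.0223). Of 15 tested carriers and other subunits 0 were called, 3 having an unadjusted p under 0.05 (limma); the largest log2 changes were 0.29 for Vdac3, 0.25 for Atpif1 and -0.21 for Slc25a3.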
